A study of Bos taurus with 14 samples.

Results

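The small leucine-rich proteoglycans are secreted matrix proteins, and 7 of them are described here in cattle: decorin (DCN), biglycan (BGN), asporin (ASPN), fibromodulin (FMOD), lumican (LUM), PRELP and osteoglycin (OGN). The 7 genes were taken by symbol. All 7 were listed among the 23159 readable features of the first of 2 file sets and among the 24616 features of the second, and also among the 18440 names used from both. RNA-seq was made from 14 libraries. A pair of skin fibroblast lines and a pair of pools of 10 whole blastocysts, titled as in vivo embryos, served as controls. The remaining 10 libraries came from 2 bovine embryonic stem cell lines (bESC, derived from blastocysts), called A and B. Passages 10, 13, 23, 35 and 45 were sequenced for line A, passages 10, 12, 24, 35 and 46 for line B. The labels describe 1 stem cell culture: a custom basal medium without FGF2 or TGFb of its own, supplemented with FGF2 and with IWR1, an inhibitor of WNT signalling, in wells with MEFs, the mouse embryonic fibroblasts widely used as feeder cells. Each stem cell line is a single derivation sampled repeatedly, so the later libraries of a line are not separate derivations. No genetic change or further treatment is given for any group, nor the strain, sex or age of the animals.

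Proteins of this family have a core of leucine-rich repeats, and most carry chondroitin, dermatan or keratan sulfate chains. They bind fibrillar collagens and set fibril diameter and spacing, and several bind growth factors of the TGF-beta family. DCN, BGN and ASPN belong to class I of the family, FMOD, LUM and PRELP to class II, and OGN to class III. Dermal fibroblasts are a well known source of DCN and LUM.

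Levels are in RPKM, read density scaled to transcript length and library size, and are comparable between genes because they are divided by length. The P10 libraries, the fibroblasts and the blastocyst pools were in the first file set and the 8 later stem cell libraries in the second, so passage 10 against later passages cannot be told apart from the file set. Relative sequencing depth, read from the steps between low values, ran from 1.0 to 1.56 times that of fibroblast line 1 within the first set, and from 0.71 to 1.03 times that of line A at P13 within the second. The top 2 features held 64.0% and 65.8% of the summed RPKM of the blastocyst pools but 2.08% to 3.36% in the other 12 libraries. All 12 markers on a fibroblast list reached 1 RPKM in both fibroblast lines, where their summed level was 14046 and 14530 RPKM. That sum was 20.3 and 24.7 RPKM in the pools, 607 and 946 RPKM for P10 and 727 to 986 RPKM for the 8 later stem cell libraries. The 5 pluripotency markers with a shared name (SOX2, SALL4, LIN28B, DNMT3B and OTX2) summed to 420 to 564 RPKM in the stem cells, 58.2 and 68.2 RPKM in the pools and 0.499 and 2.14 RPKM in the fibroblasts. The 7 trophectoderm markers summed to 665 and 957 RPKM in the pools and 157 to 789 RPKM in the stem cells, where only the keratins KRT8 (115 to 514 RPKM) and KRT18 (37.9 to 274 RPKM) reached 1 RPKM and CDX2 was listed at 0 in all 10 libraries.

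The 7 genes fell into a set of 4 that was present in every stem cell library and a set of 3 that was near 0 there. LUM, BGN, DCN and PRELP were above 1 RPKM in 12 of the 14 libraries, those of the fibroblasts and the stem cells. ASPN, FMOD and OGN were above 1 RPKM in the 2 fibroblast lines only. In the blastocyst pools no member reached 1 RPKM, though the top 2 features held most of the summed RPKM there and left less to all other genes.

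DCN, the class I member that coats collagen fibrils and binds TGF-beta, stood at 1400 and 814.3 RPKM in fibroblast lines 1 and 2, at rank 54 and 86 of the 23159 features. It was 5.30 RPKM in line A and 21.5 RPKM in line B at P10. Over the 8 later libraries DCN ran from 40.6 to 71.7 RPKM with a median of 50.7 RPKM. The P10 libraries thus lay below every later library, and the later values of line A (50.4 ± 9.67, SD, n = 4) and line B (54.9 ± 12.4, SD, n = 4) overlapped.

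BGN, its closest relative, which also binds collagen and can signal through Toll-like receptors once released, was 519.8 and 474.6 RPKM in the fibroblasts. At P10 it was 9.15 RPKM in line A and 109.6 RPKM in line B. The later libraries ran from 95.6 to 190.2 RPKM with a median of 126 RPKM. Line A at P10 stood apart below the other 9 stem cell libraries, whereas line B at P10 was inside the range of the later ones.

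ASPN, which has no chain attachment site of the usual kind and binds collagen and TGF-beta, was 123.6 and 157.5 RPKM in the fibroblasts. It was 0.887 and 0.584 RPKM in the blastocyst pools, 0.054 and 0.248 RPKM in lines A and B at P10, and 0.0121 to 0.104 RPKM at later passages. ASPN was thus the member with the highest level in the pools, and its pool values lay above its own values in all 10 stem cell libraries.

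LUM, a class II keratan sulfate proteoglycan abundant in cornea and skin, was 715.3 and 874.4 RPKM in fibroblast lines 1 and 2. It was 53.4 and 81.2 RPKM in lines A and B at P10 and ran from 34.9 to 84.3 RPKM at later passages, with a median of 54.1 RPKM. Both P10 values lay inside the later range, and all stem cell libraries lay far below both fibroblast lines.

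FMOD, which binds collagen and helps in cross-linking, was 593.6 and 221.7 RPKM in the fibroblasts, 2.68 times higher in line 1. In the 10 stem cell libraries it did not pass 0.291 RPKM, and it was listed at 0 in both pools. No library lay between these levels.

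PRELP, whose basic end binds heparan sulfate and which is placed between basement membranes and the underlying matrix, was 95.7 and 61.6 RPKM in the fibroblasts. It was 3.40 and 3.82 RPKM in lines A and B at P10 and 1.69 to 3.66 RPKM at later passages, with a median of 2.14 RPKM. PRELP was listed at 0 in both pools.

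OGN, the class III member, also called mimecan, differed most between the fibroblast lines, at 101.4 RPKM in line 1 and 9.27 RPKM in line 2, a ratio of 10.9. It was 0.981 and 0.943 RPKM in lines A and B at P10 and 0.122 to 0.820 RPKM later, where line A at P13 was the highest. Its 2 pool values were 0.254 and 0.315 RPKM, inside the range of the stem cell libraries.

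**Figure D1:**
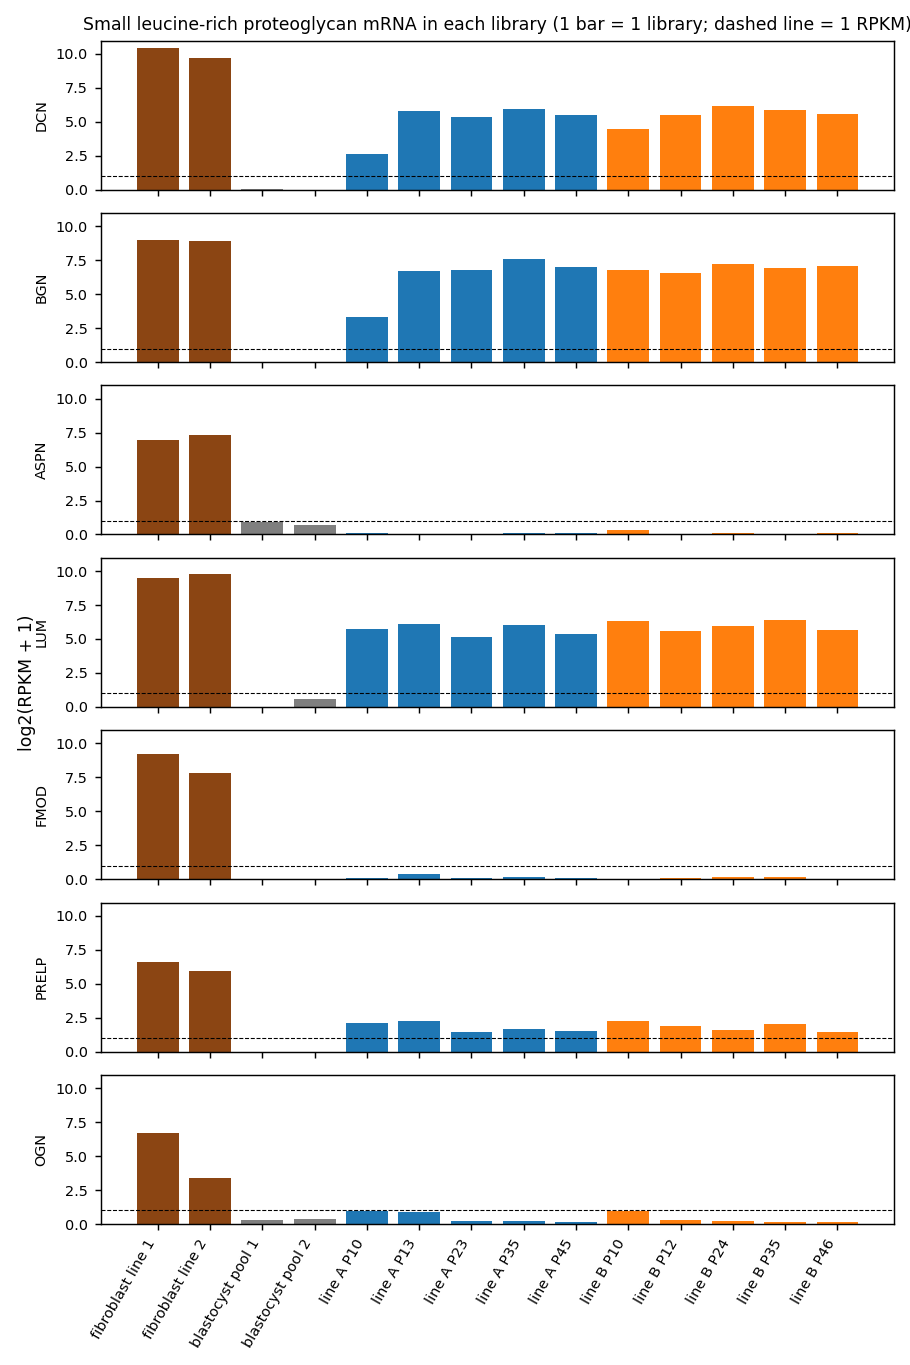
Level of each of the 7 proteoglycan mRNAs in each of the 14 libraries as log2(RPKM + 1), 1 bar per library, with fibroblasts in brown, blastocyst pools in grey, line A in blue and line B in orange. DCN, BGN, LUM and PRELP rise above the dashed line at 1 RPKM in all stem cell libraries, ASPN, FMOD and OGN in none of them.

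The order of the 7 genes also differed between cell types. In the fibroblasts DCN (1107 ± 414 RPKM, SD, n = 2) and LUM (795 ± 113 RPKM) led, with overlapping values. BGN (497 ± 32.0 RPKM) and FMOD (408 ± 263 RPKM) came next and overlapped each other. ASPN (141 ± 23.9 RPKM) lay above PRELP (78.7 ± 24.1 RPKM) in both lines, and OGN (55.3 ± 65.1 RPKM) overlapped PRELP. In the 8 later stem cell libraries BGN (130 ± 29.6 RPKM, SD, n = 8) was above LUM (55.9 ± 16.2 RPKM) and DCN (52.6 ± 10.6 RPKM), which overlapped. PRELP followed at 2.40 ± 0.724 RPKM.

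As a share of the summed RPKM of the 7 genes, DCN made up 39.4% and 31.2% in fibroblast lines 1 and 2. BGN made up 14.7% and 18.2% there, but 45.3% to 59.8% in the 8 later stem cell libraries and 50.4% in line B at P10. Line A at P10 was the exception among the stem cells: LUM made up 73.8% of its sum and BGN 12.7%. ASPN, FMOD and OGN together held 23.1% and 14.9% of the sum in the fibroblasts, 1.52% and 0.560% in lines A and B at P10, and 0.0906% to 0.480% at later passages. The sum itself was 3549 and 2613 RPKM in the fibroblasts, 72.3 and 217 RPKM in lines A and B at P10, 189 to 319 RPKM at later passages, and 1.17 and 1.41 RPKM in the pools. The ratio of LUM to DCN was 0.511 and 1.07 in the fibroblasts, 10.1 and 3.78 at P10; it was 0.834 to 1.49 at later passages, so that P10 stood apart from both.

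**Figure D2:**
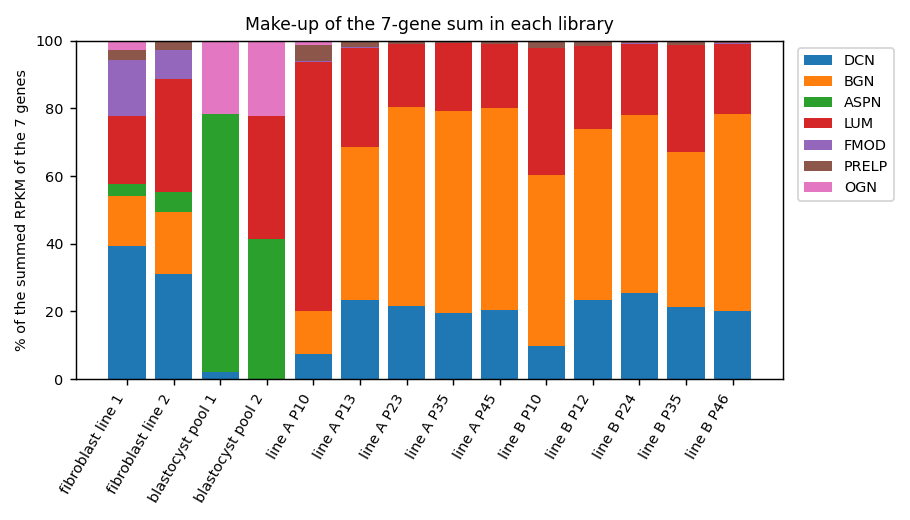
Share of each gene in the summed RPKM of the 7 genes, 1 stacked bar per library, in percent. BGN is the largest share in 9 of the 10 stem cell libraries and LUM in line A at P10; the blastocyst bars divide sums of only 1.17 and 1.41 RPKM.

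The first comparison set the stem cells at P10 against skin fibroblasts, the differentiated control. LUM, BGN, DCN and PRELP were lower in the stem cells, and ASPN, FMOD and OGN were near 0 there. The difference was tested with limma on log2(RPKM + 1) in 1 fit of 6 libraries over 11761 genes, with Benjamini-Hochberg adjustment over all of them and an adjusted p below 0.05 as the threshold. Each change is stated against the median gene, which was 0.23 higher in the stem cells on the log2 scale, and the p tests the change before that shift. Of all genes tested, 21.9% were called lower and 35.4% higher, 57.3% in either direction. ASPN, FMOD and OGN passed the filter of 1 RPKM in at least 2 libraries through the fibroblasts alone and so had to differ, and no test of them is given. LUM, BGN, DCN and PRELP reached 1 RPKM in both cell types, and all 4 were called lower.

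LUM was lower by a relative log2 change of -3.80 ± 0.29 (SE, limma adjusted p = 1.37e-04) and PRELP by -4.31 ± 0.25 (limma adjusted p = 5.65e-05). DCN changed by -6.72 ± 0.57 (limma adjusted p = 1.95e-04). BGN changed by -4.12 ± 0.97 (limma adjusted p = 0.0134), with the widest error of these 4; its 2 P10 libraries differed 12.0-fold. As a description, the relative changes of the genes near 0 in the stem cells were -8.68 for FMOD, -7.17 for ASPN and -4.28 for OGN, held down by the pseudocount of 1. Without fibroblast line 1 the BGN call was lost (fitted change -3.83, limma adjusted p = 0.0549). Without line A at P10 the fitted change of BGN was -2.17 and that of DCN -5.57; without line B at P10 they were -5.62 and -7.41, all still called.

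Expressed as a percentage of the fibroblast mean, the members spanned a wide range. BGN was 11.9% of the fibroblast mean at P10 and 26.1% at later passages. LUM was 8.47% and 7.03%, PRELP 4.59% and 3.05%, and DCN 1.21% and 4.75%. OGN was 1.74% and 0.437%, ASPN 0.107% and 0.0420%, and FMOD 0.0110% and 0.0256%. The 12 fibroblast markers spanned a similarly wide range, with a median of 2.87% at P10 and 5.25% later. Their extremes at later passages were FAP, a fibroblast surface protease, at 0.121% and POSTN, the matrix protein periostin, at 213%. S100A4, a calcium-binding protein high in fibroblasts at 3634 RPKM, was at 0.280%, and VIM, the mesenchymal intermediate filament, at 9.85%. In bulk RNA, fewer cells of a type and less RNA per cell cannot be told apart, and the part of feeder RNA or of other cells in the stem cell values was not tested. No marker of the fibroblast list was at 0 in any stem cell library. Between 6 and 11 of the 12 reached 1 RPKM in each, the 6 in line A at P10. Markers of cartilage and bone summed to 94.0 to 161 RPKM in the stem cells against 4.44 and 8.68 RPKM in the fibroblasts, most of it COL2A1, a fibrillar collagen (95.5 RPKM at P10). Of the other 5 markers on that list, SOX9 was 0.197 RPKM in fibroblasts and 5.78 RPKM at P10 and SP7 0.664 and 1.77 RPKM. RUNX2 was lower, at 5.51 and 0.608 RPKM, and ACAN (0.141 and 0.00740 RPKM) and IBSP (0.025 and 0.0165 RPKM) were near 0 in both.

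**Figure D3:**
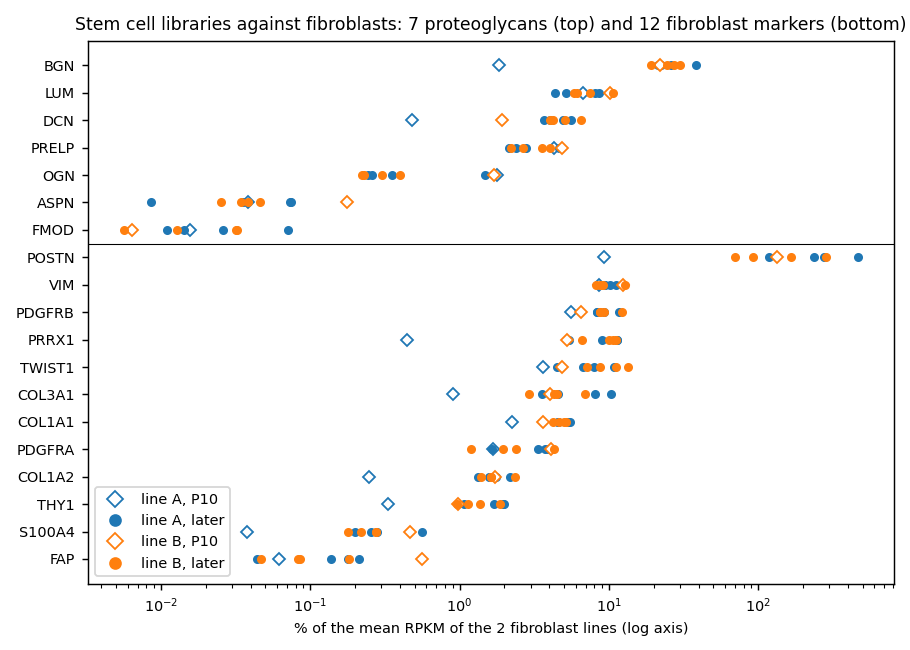
Level in each of the 10 stem cell libraries as a percentage of the mean of the 2 fibroblast lines, on a log axis, for the 7 proteoglycans (top) and 12 fibroblast markers (bottom); open diamonds are P10 and filled circles later passages. The proteoglycans spread from FMOD at 0.0256% to BGN at 26.1% at later passages, and line A at P10 lies apart to the left for BGN and DCN and for several markers.

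The second comparison set the P10 stem cells against blastocysts, the embryo stage from which the lines came. LUM, BGN, DCN and PRELP were called higher in the stem cells in the same fit, in which 73% of all genes were called higher and 7.33% lower, 80.3% in either direction. The median gene was 1.43 higher in the stem cells, and the top 2 features held most of the RPKM sum of the pools. Being called higher was therefore the common case. LUM lay above the median gene by 4.34 ± 0.29 (SE, limma adjusted p = 1.36e-05) and DCN by 2.13 ± 0.57 (limma adjusted p = 0.00112). Both were near 0 in the pools, so the size of these changes depends on the pseudocount. With a pseudocount of 0.1 they were 6.10 for LUM and 4.64 for DCN. BGN (limma adjusted p = 0.00251) and PRELP (limma adjusted p = 2.28e-04) were listed at 0 in both pools and are given no fold. Without line A at P10 the fitted change of DCN was 4.47, and without line B at P10 it was 2.64. DCN and BGN were called in both cases. ASPN, below 1 RPKM in both groups, was lower in the stem cells by a fitted change of -0.59 ± 0.23 (limma adjusted p = 0.0461). That value is before the shift of the median gene, and the relative change was -2.02. The ASPN call held with a pseudocount of 0.1 (fitted change -1.83, limma adjusted p = 0.0089). It also held with quantile scaling (-1.77, limma adjusted p = 4.78e-04) and median-of-ratios scaling (-1.23, limma adjusted p = 0.00372). That call did not hold without a filter (limma adjusted p = 0.0601), nor when any 1 of the 4 libraries compared was left out. FMOD (limma adjusted p = 0.90) and OGN (limma adjusted p = 0.566) were not called, at levels below 1 RPKM in both groups. The error is shared by all groups of the fit, and for OGN (SE 0.94) it includes the fibroblast lines, at 101.4 and 9.27 RPKM. OGN itself was 0.981 and 0.943 RPKM at P10 and 0.254 and 0.315 RPKM in the pools. Its p therefore does not measure the spread of the 4 libraries compared alone.

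Between the controls themselves, DCN, LUM, BGN and PRELP were called higher in fibroblasts than in blastocysts, where 63.4% of all genes were called higher and 11% lower, 74.4% in either direction. The relative changes were 8.89 ± 0.57 for DCN (limma adjusted p = 1.88e-05) and 8.18 ± 0.29 for LUM (limma adjusted p = 5.24e-06). These sizes also depend on the pseudocount, and with 0.1 they were 11.62 for DCN and 10.04 for LUM. BGN (limma adjusted p = 1.95e-04) and PRELP (limma adjusted p = 9.24e-06) were listed at 0 in the pools and are given no fold. ASPN, FMOD and OGN reached 1 RPKM in the fibroblasts alone, so no test of them is given; their pool values stand above. These comparisons share libraries with those above, so their values stand side by side and are not independent of each other.

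Within the stem cells, the P10 libraries of lines A and B differed most in BGN and DCN among the members above 1 RPKM there. Line B was 12.0 times line A for BGN, 4.05 times for DCN and 4.59 times for ASPN. The corresponding ratio was 1.52 for LUM, 1.12 for PRELP, 0.961 for OGN and 0.406 for FMOD. ASPN and FMOD were below 0.25 RPKM in both libraries. Over 11374 features the median ratio was 1.00, and 8.48% were at least 2-fold, 3.33% at least 4-fold and 1.56% at least 10-fold higher in line B. The fibroblast markers moved the same way: 12 of 12 were higher in line B, 8 of them at least 2-fold, with ratios from 1.17 to 14.5 and a median of 3.71. Their part in the difference was not tested. With 1 library per line at P10 there is no test of these ratios.

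DCN was higher at later passages than at P10, and it was the only member called in that comparison. This fit took the 10 stem cell libraries together and had 3 terms: line, passage number, and later against P10. It tested 10726 genes, among them DCN, BGN, LUM and PRELP. ASPN, FMOD and OGN stayed below 1 RPKM in all stem cell libraries and were not tested. Of all genes, 13.6% were called higher and 2.3% lower at later passages, 15.9% in either direction. DCN rose by a relative log2 change of 2.07 ± 0.41 (SE, limma adjusted p = 0.00852), and the call held without line A at P10 (fitted change 1.31, limma adjusted p = 0.0422) and without line B at P10 (3.03, limma adjusted p = 6.44e-04). BGN had a relative change of 1.58 ± 0.73 (limma adjusted p = 0.141). That value rested on line A at P10: without it the fitted change was -0.09 (limma adjusted p = 0.878), and without line B at P10 it was 3.44 (limma adjusted p = 2.08e-04). LUM (-0.35 ± 0.34, limma adjusted p = 0.651) and PRELP (-0.33 ± 0.23, limma adjusted p = 0.532) were not called. P10 and later libraries are also the 2 file sets, and the fibroblast markers in this fit had 1 of 11 called, COL1A1, which was higher at later passages by 0.64 ± 0.20 (limma adjusted p = 0.0314).

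**Figure D4:**
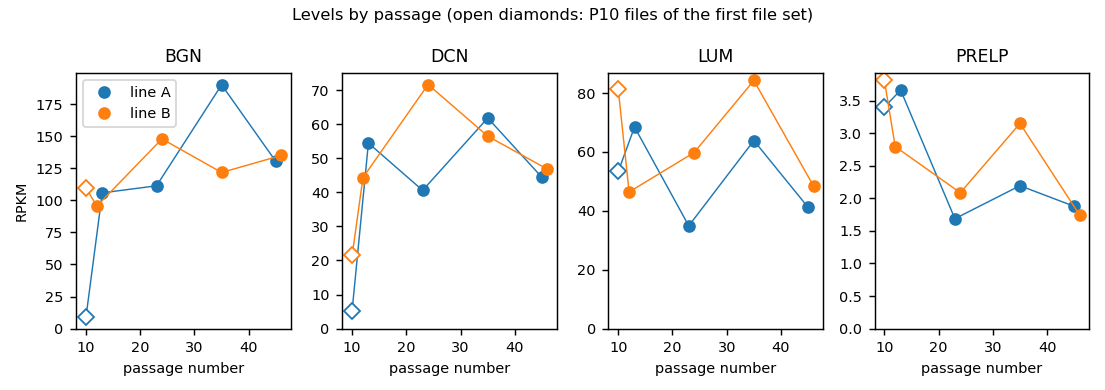
Level in RPKM against passage number for BGN, DCN, LUM and PRELP, line A in blue and line B in orange; open diamonds are the P10 libraries of the first file set and filled circles the later ones. The low BGN value of line A at P10 (9.15 RPKM) and the low DCN values of both P10 libraries stand apart, while LUM and PRELP at P10 lie at or near the later range.

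No difference between the lines was called for the 4 members tested, nor a trend with passage number. Only 2 of 10726 genes, or 0.0186%, were called between the lines by limma, both higher in line B. At an unadjusted p below 0.05 there were 1202 genes, and 3 were called by limma without the mean-variance trend. The fitted difference, line B minus line A, was 0.62 for BGN (95% confidence interval -0.46 to 1.70, limma adjusted p = 0.581), 0.46 for DCN (-0.15 to 1.07, limma adjusted p = 0.493), 0.29 for LUM (-0.22 to 0.79, limma adjusted p = 0.589) and 0.07 for PRELP (-0.27 to 0.42, limma adjusted p = 0.851). The BGN value again came from P10, as with the 8 later libraries alone it was -0.09.

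Per 10 passages, the fitted slope was 0.13 for BGN (95% confidence interval -0.36 to 0.62), -0.01 for DCN (-0.29 to 0.26), -0.02 for LUM (-0.25 to 0.21) and -0.12 for PRELP (-0.28 to 0.03). In this comparison 0 genes, or 0%, were called by limma with or without the trend, with 263 genes at an unadjusted p below 0.05. The slopes of the lines were also compared with each other, and again 0 genes, or 0%, were called by limma with or without the trend, with 177 at an unadjusted p below 0.05. The largest such difference among the members was that of BGN, line B minus line A, at -0.63 ± 0.31 (limma adjusted p = 0.999).

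The members did not vary as 1 block across the stem cell libraries. On log2(RPKM + 1), Pearson's r of DCN with BGN was 0.92 over 10 libraries, 0.51 without line A at P10 and 0.60 over the 8 later libraries. LUM and PRELP, both of class II, had r = 0.72, 0.78 and 0.72 over the same sets. DCN and LUM, which lie next to each other in the genome, had r = 0.04 over 10 libraries and 0.75 over the 8 later ones. BGN and PRELP had r = -0.42, -0.46 and -0.40. These are descriptions over libraries that share lines and file sets, and no test was made of them.

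Among 9760 other genes, those whose values over the 10 stem cell libraries were most like DCN were ERP44, an endoplasmic reticulum chaperone (r = 0.989), COL1A1, the main fibrillar collagen chain (r = 0.983), and IGFBP7, a secreted growth factor-binding protein (r = 0.982). BGN was nearest to CPQ, a peptidase (r = 0.994), CDKN2A, a cell cycle inhibitor (r = 0.986), and LAPTM4A, a lysosomal membrane protein (r = 0.982). LUM was nearest to PKP2, a desmosomal plaque protein (r = 0.968), ALX1, a homeobox factor of craniofacial mesenchyme (r = 0.966), and KANK1 (r = 0.955). PRELP was nearest to TTC23 (r = 0.980), HIVEP1, a zinc finger factor (r = 0.977), and FAM227A (r = 0.963). Line A at P10, the lowest library for both DCN and BGN, is 1 of the 10 points. For DCN, ERP44, COL1A1 and IGFBP7 both P10 libraries, which are of the other file set, lay below every later library.

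Over all 14 libraries, where the difference between fibroblasts and the rest sets the order, the nearest genes to DCN were STX4, CERCAM and SERPINF1 (r = 0.990, 0.989 and 0.989). BGN was nearest to FURIN, a proprotein convertase, AK1 and SLC25A4 (r = 0.991, 0.990 and 0.990). LUM was nearest to AXL, a receptor tyrosine kinase, PLS3 and GPC1 (r = 0.994, 0.993 and 0.993), and PRELP to TRIM38, PLXDC2 and TEX2 (r = 0.993, 0.991 and 0.991). The genes near 0 outside the fibroblasts were nearest to genes of the same kind: FMOD to IFNAR2, SH3TC2 and TNFSF18 (r = 0.9995, 0.999 and 0.999), ASPN to ACOX2, TNN and SRPX (r = 0.997, 0.995 and 0.995), and OGN to MEOX2, TLR4 and TNXB (r = 0.988, 0.984 and 0.983).

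LUM, DCN, OGN, ASPN, FMOD and PRELP lie in clusters with relatives, by the gene order of RefSeq's ARS-UCD2.0 assembly, used for order only because the files were made on another build. On chromosome 5 the order is EPYC, KERA, LUM, DCN. KERA and EPYC, the keratocyte and epiphyseal cartilage members, did not pass 0.153 RPKM in any library, next to LUM at 34.9 RPKM or more and DCN at 5.30 RPKM or more in every stem cell library. On chromosome 8 the order is OGN, OMD, ASPN, ECM2, and all 4 were highest in a fibroblast line. ECM2 fell from 57.2 and 63.9 RPKM in the fibroblasts to 1.17 and 1.22 RPKM at P10. OMD, or osteomodulin, was 2.20 and 5.18 RPKM in the fibroblasts and listed at 0 in both P10 libraries. The genes flanking this cluster, CENPP and IPPK, were 3.80 to 4.93 and 1.82 to 3.12 RPKM in the fibroblasts and 4.61 to 6.88 and 1.57 to 2.29 RPKM at P10. On chromosome 16 FMOD lies beside PRELP, and here the neighbours parted. PRELP was 1.69 RPKM or more in every stem cell library and FMOD 0.291 RPKM or less. BGN lies on chromosome X beside ECMX, which was not used here.

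**Figure D5:**
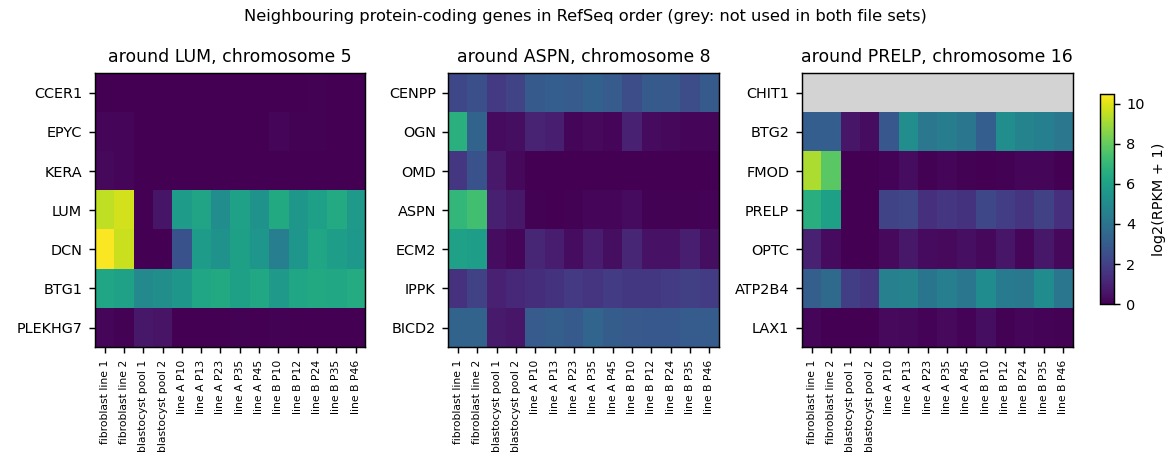
Level as log2(RPKM + 1) of the genes around LUM, ASPN and PRELP in RefSeq order (rows), in each of the 14 libraries (columns); a grey row was not used here. LUM and DCN are coloured in the stem cells beside dark KERA and EPYC, the rows from OGN to ECM2 are each highest in a fibroblast line, and PRELP is above its neighbour FMOD in every stem cell library.

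The low members rested on few reads. In the second file set, values of low genes are whole multiples of a step for each gene, within 0.02 steps for 86.1% of 2311 low genes, and the smallest whole-number series shows how thin the evidence is. ASPN came to 1 to 8 steps per later library and 35 in all. FMOD came to 2 to 27 steps, with the 27 in line A at P13. OGN came to 9 to 65 steps, again with the most, 65, in line A at P13. A step is 1 read or a fixed number of reads, so these are relative counts. OMD had 1 step over the 8 libraries and EPYC 3, and KERA was listed at 0. Differences among stem cell libraries in ASPN were thus not detectable at this depth.

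Of the other 10 small leucine-rich proteoglycans, 4 entered the fit of P10 against fibroblasts. ECM2 was lower by -5.04 ± 0.20 (limma adjusted p = 2.32e-05), with 21.9% of all genes lower. OMD (3.69 RPKM in fibroblasts, listed at 0 at P10) and PODNL1 (1.72 and 0.0625 RPKM) passed the filter through the fibroblasts alone, so no test of them is given. TSKU, or tsukushi, was not called. It was at 18.0 ± 2.25 RPKM (SD, n = 2) in fibroblasts, 16.3 RPKM at P10 and 19.0 ± 3.35 RPKM (SD, n = 8) later.

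In the lists that follow, median changes are relative to the median gene, so that the median over all genes is 0 by construction. Of the 70 partner genes tested at P10 against fibroblasts, 50 were called lower and 6 higher, where 21.9% of all genes were called lower and 35.4% higher. Of the partner genes called, 14 lower and 5 higher ones passed the filter only through the group where they were high, and so had to differ. The same shares over all genes apply to the counts of each list at P10 against fibroblasts below. The collagens that these proteins bind were lower in the stem cells as well. Of 10 fibril collagens and their partners 10 were called lower at P10 than in fibroblasts, with a median relative change of -5.96, 2 of them (COL6A3 and COL14A1) having passed the filter through fibroblasts alone. COL1A1 was 1635 ± 100 RPKM in fibroblasts and 47.9 RPKM at P10, COL6A1 958 ± 46.1 and 6.51 RPKM, COL6A2 479 ± 0.805 and 8.67 RPKM, and COL14A1, whose product associates with DCN, 88.4 ± 21.3 and 0.816 RPKM. Of 14 genes of collagen cross-linking and fibril assembly 13 were lower, with a median of -3.03, and LOXL3 was not called. LOXL4, ELN, DPT and TNXB passed through fibroblasts alone. LOX, the lysyl oxidase that starts cross-links, was 256 ± 113 RPKM in fibroblasts and 3.54 RPKM at P10. ELN, or elastin, was 46.4 ± 27.3 and 0.752 RPKM, LOXL2 115 ± 30.1 and 13.6 RPKM, and LOXL4 16.7 ± 1.04 and 0.275 RPKM.

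Of 12 enzymes tested that build the sugar chains, 7 were lower at P10 than in fibroblasts and 1 was higher. Of 5 linkage region enzymes tested, B4GALT7 (15.0 ± 0.261 RPKM in fibroblasts, 8.63 RPKM at P10) and B3GAT3 (33.0 ± 1.25 and 21.8 RPKM) were lower and none was higher, with a list median of -0.74. Of 16 chondroitin and dermatan sulfate enzymes only 3 were tested, as 12 are not analysed here, and all 3 were lower: the epimerases DSE (70.1 ± 23.3 and 18.5 RPKM) and DSEL (39.5 ± 2.84 and 4.75 RPKM), and CSGALNACT2 (10.4 ± 1.09 and 3.45 RPKM), with a median of -2.07. Of 4 keratan sulfate enzymes tested B4GALT1 (31.1 ± 3.59 and 10.4 RPKM) and B3GNT2 were lower. B3GNT7 was higher, listed at 0 in fibroblasts and 5.08 RPKM at P10, and passed the filter through the stem cells alone; the list median was -0.94.

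The large and basement membrane proteoglycans went in both directions. Of 6 tested, AGRN, or agrin (0.960 ± 0.190 RPKM in fibroblasts, 30.1 RPKM at P10), and NCAN, or neurocan (0.00408 and 8.92 RPKM), were higher, HAPLN3 (28.8 ± 2.85 and 2.48 RPKM) and CSPG4 (4.58 ± 0.618 and 1.04 RPKM) were lower, and the list median was -0.11. AGRN, NCAN and CSPG4 passed the filter through the group where they were high alone. VCAN, or versican, was 29.0 ± 11.0 RPKM in fibroblasts and 43.5 RPKM at P10 and was not called there.

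Of 11 proteases and helpers that process these proteins 7 were lower, and TLL2, a BMP1-like protease, was higher (0.058 RPKM in fibroblasts, 1.70 RPKM at P10), with a list median of -2.09. The lower ones included PCOLCE (389 ± 70.1 and 17.2 RPKM), MMP2 (1161 ± 11.0 and 90.2 RPKM), HTRA1 (236 ± 47.4 and 3.04 RPKM) and ADAMTS5 (11.6 ± 4.92 and 0.243 RPKM). TLL2 and ADAMTS5 each passed the filter through 1 group alone. Of 13 growth factors and receptors that bind the family 8 were lower, among them LRP1 (141 ± 12.6 and 34.1 RPKM), BMP4 (24.7 ± 5.20 and 3.28 RPKM), MET (8.88 ± 1.08 and 0.685 RPKM) and TLR2 (6.75 ± 1.67 and 0.177 RPKM). TGFBR1 (8.08 ± 5.60 and 61.8 RPKM) and TGFB2 (1.62 ± 1.33 and 4.42 RPKM) were higher. TGFB2 and 4 of the 8 lower genes (TGFB3, TGFBR2, TLR2 and TLR4) passed the filter through 1 group alone.

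At later passages against P10, 12 of the 64 genes tested on these lists were called, 10 higher and 2 lower, near the shares of 13.6% higher and 2.3% lower over all genes. The split was 6 and 4 with quantile scaling and 8 and 4 with median-of-ratios scaling. The count was 5 without line A at P10, 7 without line B at either P12 or P24, and 18 without line B at P10. LOX rose from 3.54 RPKM at P10 to 14.8 ± 3.11 RPKM (SD, n = 8, limma adjusted p = 6.62e-04), LOXL2 from 13.6 to 20.4 ± 1.04 RPKM (limma adjusted p = 0.00748) and PLOD2 from 2.07 to 5.09 ± 0.644 RPKM (limma adjusted p = 0.0176). ADAMTS1, a protease that can cleave large proteoglycans, rose from 2.95 to 9.56 ± 0.640 RPKM, ADAMTS4 from 2.48 to 6.25 ± 1.31 RPKM and HTRA1 from 3.04 to 7.50 ± 0.590 RPKM. TGFB1 rose from 6.20 to 17.1 ± 3.37 RPKM and DSE from 18.5 to 32.8 ± 4.75 RPKM, and TGFB2 fell from 4.42 to 0.867 ± 0.557 RPKM. VCAN fell from 43.5 to 23.8 ± 5.21 RPKM. COL1A1 and MMP2 were the other 2 that rose. These means are plain group means, while the calls and p-values test the later term fitted beside line and passage number. Between lines A and B, and with passage number, limma called 0 of the 64.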

How the data were processed

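RPKM values per gene were deposited by the authors, 1 file per library; the submitters' processing notes name the UMD3.1 build and edgeR, and no aligner or annotation is given in the sources used here. The first file set held 23231 features, of which 26 with unreadable names, 25 with date names and 21 with blank values were left out. The second held 24616, with 26 date names restored. Of 21008 names in both sets 2568 with a copy suffix were left out. Here log2(RPKM + 1) values entered linear models in limma 3.58.1 under R 4.3.3, with empirical Bayes and a trend, on genes of at least 1 RPKM in at least 2 libraries, with Benjamini-Hochberg adjustment over all genes tested and a threshold of 0.05, after testing on simulated data. Line was a term of the fits within the stem cells, not of those against fibroblasts and blastocysts. Other replicate numbers follow accession order and pair nothing. The files give no total counts, so only relative depth is known. Where the labels do not say that libraries come from separate cultures or animals, p-values measure only the spread between these libraries. The members, gene lists and tests were chosen with earlier results of these data known. Named genes are the 7 members, from each list up to 4 genes with the smallest adjusted p at P10 against fibroblasts and up to 3 called at later passages against P10 or between lines, and the 3 genes most like each member by Pearson's r; TGFBR1, TGFB2, PODNL1, OMD and other genes named to complete a count of 5 or fewer were named after their values were seen, as were markers and neighbours. Alternatives were a pseudocount of 0.1, no filter, quantile and median-of-ratios scaling, no trend, each library left out, fits of the groups compared alone, and later libraries in place of P10.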

Additional observations from a re-analysis of the deposited data

Results flagged for a closer look

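OGN in line A at P13 was 0.820 RPKM, far above the other 3 later libraries of that line (0.136 to 0.195 RPKM) and close to the P10 values of 0.981 and 0.943 RPKM. It was 1 of 14 sets of 4 later libraries examined for a library far from the rest by Dixon's gap ratio, and chance marks about 1 set in 20. FMOD was also highest of the stem cell libraries in line A at P13, at 0.291 RPKM. The cause was not tested.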

How the results depend on the processing

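Changes here are fitted log2 changes. The fitted change of all 7 members stayed negative at P10 than in fibroblasts in every alternative that tested them. Leaving out 1 library in turn gave 3 to 7 members called at P10 against fibroblasts and 4 to 7 for fibroblasts against blastocysts. The counts of 7 include ASPN, FMOD and OGN, which passed the filter through the fibroblasts alone and so had to differ. Without a fibroblast line these no longer passed, and only 4 members were tested. The 3 came without fibroblast line 1, where the BGN call was also lost. In the full fit 21.9% of all genes were called lower at P10 than in fibroblasts. For fibroblasts against blastocysts 63.4% were called higher. For later passages against P10, leaving out 1 library gave 1 to 2 members called, the 2 without line B at P10. Genes of the partner lists called at later passages against P10 ranged from 5 to 18, against 12 in full. Their number was 5 when P10 of line A was left out and 7 when either P12 or P24 of line B was. Against blastocysts, FMOD turned to -0.12 with quantile scaling. OGN turned to -0.91 with quantile scaling, -0.0202 with median-of-ratios scaling and -0.0673 with the later libraries in place of P10. The BGN line difference was -0.0851 with the 8 later libraries alone, and the DCN slope difference 0.0130. A further alternative, chosen after seeing the data, left out line A at P13 and P35. It kept line B at P35, the stem cell library with the highest LUM (84.3 RPKM). There the slopes of DCN and LUM were 0.0412 and 0.0736 and the slope differences of LUM and PRELP -0.0121 and -0.0331. The cause was not tested. None of these values was called. Leaving out 1 stem cell library in turn, line differences ranged from -0.0851 to 0.84 for BGN and -0.0233 to 0.18 for PRELP, and slopes from -0.14 to 0.0753 for DCN and -0.12 to 0.0843 for LUM. Later minus P10 ranged from -0.0863 to 3.44 for BGN and -0.54 to 0.0432 for LUM, and slope differences from -0.49 to 0.0130 for DCN, -0.0763 to 0.26 for LUM and -0.0479 to 0.14 for PRELP. Line was a term of the fits within the stem cells, and the labels tie no other libraries in pairs. The fits against fibroblasts and blastocysts had no line term. With the later libraries in place of P10, the 8 libraries thus entered as separate replicates, though they come from 2 lines sampled repeatedly. With 2 libraries per control group and few reads for ASPN, FMOD and OGN in stem cells, small differences were not detectable.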
